A study of Mus musculus with 12 samples.

Results

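Cadherins and catenins build the adherens junction, the contact through which neighboring cells hold on to each other. The 9 genes described here were chosen by symbol for their place in that junction, with earlier results of these data known. They were found in the count table by Ensembl identifier. They are 5 cadherin genes (Cdh1, Cdh2, Cdh3, Cdh11 and Cdh13) and 4 catenin genes (Ctnnb1, Ctnna1, Ctnnd1 and Jup) among 55487 gene identifiers in all. Bulk RNA-seq, which reads the mixed RNA of all cells in a sample, was carried out on 12 mouse melanoma tumors. The first group was 6 Arf6-null tumors labelled BrafCA;Cdkn2af/f;Arf6f/f, and the second was 6 wild-type tumors labelled BrafCA;Cdkn2af/f, where wild type refers to Arf6 only. Both groups thus carry the BrafCA allele and floxed Cdkn2a. The recombinase, the cells in which it acted, the age of the animals and whether each tumor came from a separate animal are not stated in the labels. The p-values therefore speak of the spread among these libraries only, which may be partly technical.

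Classical cadherins span the plasma membrane and bind the same kind of cadherin on the next cell. Inside the cell their tail holds p120-catenin (Ctnnd1), which keeps the cadherin at the surface, and either beta-catenin (Ctnnb1) or plakoglobin (Jup), which link it to alpha-catenin (Ctnna1) and actin. Melanocytes in skin use E-cadherin (Cdh1) and P-cadherin (Cdh3) to contact keratinocytes, and many melanomas instead carry N-cadherin (Cdh2). Arf6 encodes a small GTPase that drives endosomal traffic, including internalization and recycling of cadherins. The comparison asks which cadherins and catenins these tumors express and whether their RNA differs when Arf6 is lost.

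Total counts per library were 21007954 to 45688253 in Arf6-null and 22211738 to 30326419 in wild-type tumors. Arf6 itself was at 12.2 to 22.5 CPM in Arf6-null tumors, against 84.2 to 147 CPM in wild-type tumors, where CPM relate a count to the library total after scaling for composition. Library numbers 19 to 24 are all Arf6-null and 1 to 6 all wild-type, so whatever the numbering stands for and the genotype cannot be told apart. Tumor numbers in the labels ran from 19836 to 20570 in Arf6-null tumors. In wild-type tumors they ran from 5526 to 7657, except 20681 for replicate 5, so they too nearly split the genotypes. Wild-type replicates 3, 4 and 5 stood apart by their skeletal muscle score, the mean log2 CPM of 16 skeletal muscle genes. They had 6.89, 5.84 and 6.82, while the other libraries reached at most 3.5. Y-linked expression, summed over Ddx3y, Eif2s3y, Kdm5d and Uty, was under 1 CPM in Arf6-null replicate 6 and wild-type replicates 3, 5 and 6. In these Xist, the RNA of the inactive X chromosome, was at 689, 1345, 657 and 1060 CPM, and elsewhere under 1 CPM. Wild-type replicate 1 had 22.3 Y-linked CPM, and the remaining libraries 148 to 248. This split was uneven between genotypes, and Y-linked expression was used below as a covariate. The labelled tissue was weakly marked by pigment cell genes: 7 of 10 melanocyte markers stayed under 1 CPM in every library, Mlana had 0 counts in all, and Mitf, the melanocyte transcription factor, averaged 18.2 ± 8.78 CPM in Arf6-null and 18.6 ± 6.74 CPM in wild-type tumors (SD, n = 6 each). Kit, a receptor of melanocytes and mast cells in the same list, was at 5.28 ± 2.64 CPM in Arf6-null and 15.4 ± 5.27 CPM in wild-type tumors without overlap (log2 fold change -1.54, edgeR adjusted p = 0.0629), and its part in the members' values was not tested.

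Jup and Ctnnb1 encode the pair of related proteins that compete for the same site on the cadherin tail. Their promoter windows, from 250 bases before to 50 bases after a RefSeq start on GRCm38.p6, are shown here because the ratio of these genes is one of the comparisons made between genotypes. The Jup window lies at chr11:100397741-100398040 on the minus strand and the Ctnnb1 window at chr9:120933328-120933627 on the plus strand. Both are printed 5′ to 3′, and capitals mark, on either strand, the GC box GGGCGG, the CCAAT box, the TATA motif TATAAA or the E-box CACCTG.
Jup: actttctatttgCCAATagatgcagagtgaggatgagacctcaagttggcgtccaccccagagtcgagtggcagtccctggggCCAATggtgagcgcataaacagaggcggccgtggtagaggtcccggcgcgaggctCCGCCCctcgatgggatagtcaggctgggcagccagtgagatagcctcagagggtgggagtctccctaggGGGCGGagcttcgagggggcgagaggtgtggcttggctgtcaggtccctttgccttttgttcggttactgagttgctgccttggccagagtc
Ctnnb1: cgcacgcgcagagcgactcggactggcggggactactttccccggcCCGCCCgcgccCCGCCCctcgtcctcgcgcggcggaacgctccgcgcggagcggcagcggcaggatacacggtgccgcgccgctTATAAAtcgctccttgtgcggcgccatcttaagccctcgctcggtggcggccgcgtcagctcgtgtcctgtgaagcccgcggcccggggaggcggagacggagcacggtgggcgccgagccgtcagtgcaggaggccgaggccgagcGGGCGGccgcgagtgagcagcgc
The Jup window held 2 matches to the GC box and 2 to the CCAAT box, and none to the TATA motif or the E-box. The Ctnnb1 window held 3 matches to the GC box and 1 to the TATA motif, and none to the CCAAT box or the E-box, the motif read by Snail and Zeb repressors. Among 32851 windows of the same length over all genes, 35.7% held the GC box, 37.4% the CCAAT box, 13.6% the TATA motif and 20.2% the E-box. Their G and C content was 60.7% for Jup and 75.0% for Ctnnb1. The RefSeq table held another Ctnnb1 window, at 120933150 to 120933449, with 2 matches to the CCAAT box. These matches describe letters in a window and no binding was measured.

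Cadherin-11, N-cadherin and T-cadherin (Cdh13) made up nearly all cadherin RNA of these 5 genes in both genotypes. To compare genes, levels were divided by the merged exon length, giving CPM per kilobase. On that scale Cdh11 averaged 27.7 ± 17.8 in Arf6-null and 49.97 ± 14.4 in wild-type tumors, and Cdh2 20.6 ± 5.40 in Arf6-null and 15.5 ± 5.79 in wild-type tumors (SD, n = 6 each). Cdh13 averaged 21.98 ± 12.8 in Arf6-null and 16.9 ± 8.92 CPM per kilobase in wild-type tumors. Cdh1 was far lower, at 0.636 ± 0.202 in Arf6-null and 0.813 ± 0.210 CPM per kilobase in wild-type tumors, and Cdh3 was lower still, at 0.0442 ± 0.0382 in Arf6-null and 0.159 ± 0.130 CPM per kilobase in wild-type tumors. Cdh1 and Cdh3 together made up at most 2.03% of the summed level of the 5 cadherins in an Arf6-null tumor and at most 1.87% in a wild-type tumor. The order Cdh11, Cdh13, Cdh2 held for the means of both genotypes, but the ranges of these neighbors overlapped and Cdh13 exceeded Cdh2 in 2 of 6 tumors of each genotype. Cdh1 exceeded Cdh3 in all 12 tumors without overlap of their ranges in either genotype.

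**Figure D1:**
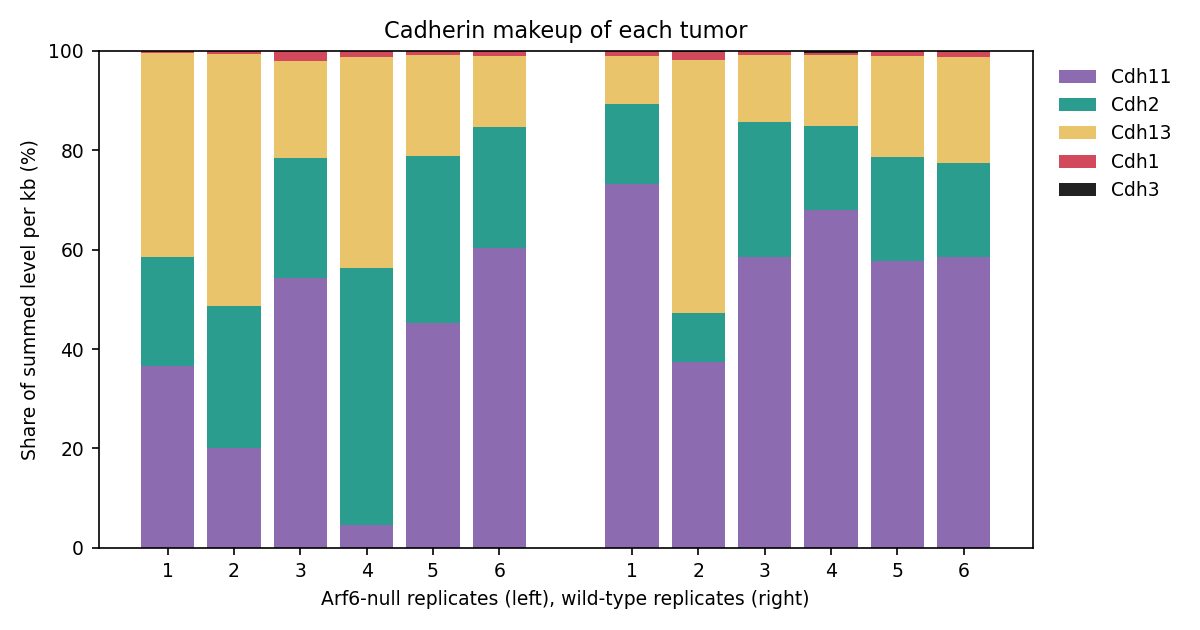
Share of each cadherin in the summed level per kilobase of the 5 cadherin genes (percent, vertical axis) in each Arf6-null tumor (left) and each wild-type tumor (right). Cdh11 led in 3 of 6 Arf6-null and 5 of 6 wild-type tumors, and Cdh1 with Cdh3 form the thin band at the top.

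Which cadherin led differed from tumor to tumor. The share of Cdh11, an osteoblast and fibroblast cadherin, ran from 4.66% over a median of 40.9% to 60.3% in Arf6-null tumors, and from 37.4% over 58.5% to 73.2% in wild-type tumors. Cdh2 held 21.9% to 51.7% with a median of 26.4% in Arf6-null tumors, against 9.74% to 27.1% with a median of 17.97% in wild-type tumors. Cdh13, a cadherin held by a lipid anchor and without a catenin-binding tail, held 14.4% to 50.8% with a median of 30.6% in Arf6-null tumors. In wild-type tumors it held 9.69% to 51.0% with a median of 17.2%, and the 51.0% was in replicate 2. Cdh11 led in 3 Arf6-null tumors, Cdh13 in 2 and Cdh2 in 1, whereas among wild-type tumors Cdh11 led in 5 and Cdh13 in 1. These shares overlapped between genotypes for each of the 5 genes.

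None of the members passed the test between genotypes. Of the 9, 8 had enough counts to be tested and 0 had an edgeR adjusted p under 0.05, where 1.15% of all 16225 tested genes did, with 0.586% called in the higher and 0.561% in the lower direction. At an unadjusted p under 0.05 the count was 1 of 8, where 23.4% of all tested genes passed. The median log2 fold change, Arf6-null over wild type, was 0.024 for the 8 members and -0.027 for all tested genes, with 4 members positive and 4 negative. In 0 of the 9 genes were the CPM ranges of the genotypes separate, as they were for 2.36% of tested genes. In bulk tumors a difference in the number of cells that express a gene and one in RNA per cell cannot be told apart.

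**Figure D2:**
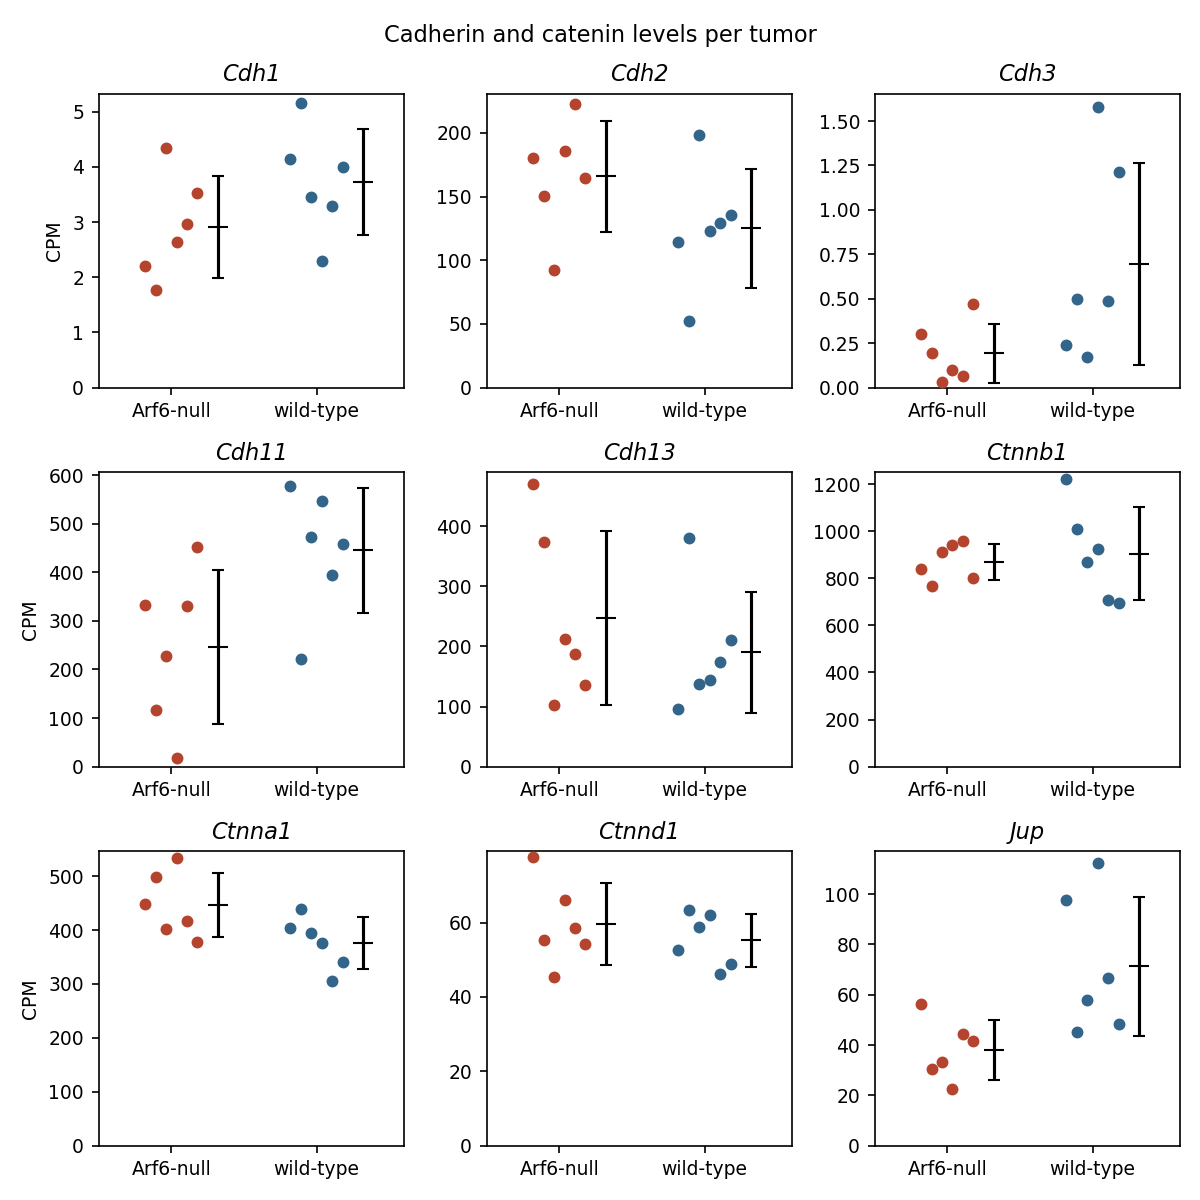
Level of each member in CPM (vertical axes, from 0) in 6 Arf6-null tumors (left, red) and 6 wild-type tumors (right, blue); each point is 1 tumor, and bars give the mean and SD. The groups overlap in every panel, with the least overlap for Jup, where 5 of 6 Arf6-null tumors lie below the lowest wild-type tumor.

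Among the catenins Jup came closest to the threshold. Plakoglobin, its product, serves in adherens junctions and also in desmosomes. Jup ran from 22.4 over a median of 37.4 to 56.5 CPM in Arf6-null tumors, against 45.1 over 62.2 to 112 CPM in wild-type tumors. In 5 Arf6-null tumors it lay below every wild-type tumor, and Arf6-null replicate 1 lay within the wild-type range. Means were 38.1 ± 11.96 CPM in Arf6-null and 71.3 ± 27.6 CPM in wild-type tumors (SD, n = 6 each). The log2 fold change was -0.91 (SE 0.27, adjusted p = 0.0860 by edgeR, unadjusted p = 0.00594). DESeq2 gave nearly the same value, -0.90 (SE 0.29), with an adjusted p = 0.0252, and was the only one of 24 alternatives to call Jup. It called 6.72% of the 33373 genes it fitted, 3.76% lower in Arf6-null tumors, and 1 of 9 members. That base includes genes to which DESeq2 gave no adjusted p, so the share among genes with an adjusted p was higher. With the fibroblast score as a covariate, an alternative added after seeing the data, the value was -0.50 (SE 0.29, adjusted p = 0.649 by edgeR), and what part fibroblasts had in it was not tested. Jup (ENSMUSG00000001552) lies on chromosome 11 at 100368958 to 100397763.

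Ctnnb1, the most abundant member, varied little among Arf6-null tumors. It ran from 767 over a median of 875 to 958 CPM in Arf6-null tumors, against 695 over 897 to 1223 CPM in wild-type tumors. The Arf6-null values all lay inside the wild-type range, and the log2 fold change was -0.06 (SE 0.14, adjusted p = 0.837 by edgeR), with a range of -0.24 to 0.047 over 24 alternatives. Per kilobase it averaged 167 ± 15.0 in Arf6-null and 174 ± 38.2 in wild-type tumors, above Ctnna1 in all 12 tumors. Ctnnb1 (ENSMUSG00000006932) lies on chromosome 9 at 120929216 to 120960507. Its exons share 759 bases with Ulk4 on the other strand, which had 1229 counts over all libraries, and the strand setting of the counting is not stated in the labels.

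Ctnna1, which ties the complex to actin, ran from 379 over a median of 433 to 534 CPM in Arf6-null tumors, against 305 over 386 to 440 CPM in wild-type tumors. In 3 Arf6-null tumors it lay above every wild-type tumor. The log2 fold change was 0.25 (SE 0.12, adjusted p = 0.230 by edgeR). It was 0.10 with the fibroblast score as a covariate and 0.15 with Y-linked expression in that place (edgeR adjusted p = 0.885 and 0.534). With the keratinocyte score it was 0.32 (edgeR adjusted p = 0.0945), and over 24 alternatives it ran from 0.10 to 0.32. Ctnnd1 ran from 45.4 over 57.0 to 77.5 CPM in Arf6-null tumors, against 46.2 over 55.8 to 63.3 CPM in wild-type tumors, with a log2 fold change of 0.11 (SE 0.13, adjusted p = 0.658 by edgeR) that ran from 0.019 to 0.18 over 24 alternatives. The spread of both genes was narrow, with the highest of 12 tumors 1.75 and 1.71 times the lowest. The per-kilobase level of Ctnnd1, 8.14 ± 1.51 in Arf6-null and 7.56 ± 0.974 in wild-type tumors, carries an uncertainty of counting. Of its 7319 exon bases, 4482 are shared with Gm28635 on the same strand, which had 0 counts in all libraries, and how reads that fit both genes were handled is not stated in the labels. Over the 2837 unshared bases alone it would be 20.998 ± 3.90 in Arf6-null and 19.5 ± 2.51 CPM per kilobase in wild-type tumors, so its place in the order, and beside Jup, is not fixed. By whole exon length Ctnnd1 exceeded Jup in 6 of 6 Arf6-null tumors and in 1 of 6 wild-type tumors, with overlapping ranges in each genotype. Ctnna1 (ENSMUSG00000037815) lies on chromosome 18 at 35118859 to 35254779 and Ctnnd1 (ENSMUSG00000034101) on chromosome 2 at 84600071 to 84650765.

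The plakoglobin to beta-catenin ratio averaged lower in Arf6-null tumors, and the difference missed the threshold after adjustment. The log2 ratio of Jup over Ctnnb1, from levels per kilobase, averaged -4.88 ± 0.51 in Arf6-null and -4.03 ± 0.49 in wild-type tumors (SD, n = 6 each), a difference of -0.84. The exact permutation test over all splits of the 12 tumors gave p = 0.0195 (two-sided), and 0.0584 after adjustment over the 3 ratios compared. With 1 tumor left out the adjusted exact permutation p ran from 0.0195 to 0.104 and passed in 3 of 12 cases, without Arf6-null replicate 1 or 3 or wild-type replicate 2. Without the 3 muscle-rich wild-type libraries the difference was -0.58 (adjusted exact permutation p = 0.25). Ranges overlapped, from -5.69 to -4.20 in Arf6-null and from -4.79 to -3.35 in wild-type tumors.

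The ratio of E- to N-cadherin showed how far these tumors lean to N-cadherin. The log2 ratio of Cdh1 over Cdh2 averaged -5.00 ± 0.76 in Arf6-null and -4.17 ± 0.91 in wild-type tumors, a difference of -0.83 (exact permutation p = 0.117, adjusted 0.154, n = 6 each). The ratio nearest to 0 was -3.57 among Arf6-null and -2.50 among wild-type tumors, so N-cadherin RNA exceeded E-cadherin RNA in all 12. Without Arf6-null replicate 3, which had the least negative Arf6-null ratio, the difference was -1.11 with an adjusted exact permutation p = 0.0455, and this was the 1 of 12 cases with a tumor left out that passed. Without wild-type replicate 2 it was -0.49 (adjusted exact permutation p = 0.232), and without the muscle-rich libraries -1.43 (adjusted exact permutation p = 0.143). For Cdh3 over Cdh1 the ratio averaged -3.66 ± 1.18 in Arf6-null and -2.56 ± 1.32 in wild-type tumors, a difference of -1.10 (exact permutation p = 0.154, adjusted 0.154, n = 6 each). The size depended on how the low counts of Cdh3 were treated, since with a pseudocount of 1 CPM the difference was -0.18 (adjusted exact permutation p = 0.610). It was -0.74 without Arf6-null replicate 3 and -0.68 without wild-type replicate 4.

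**Figure D3:**
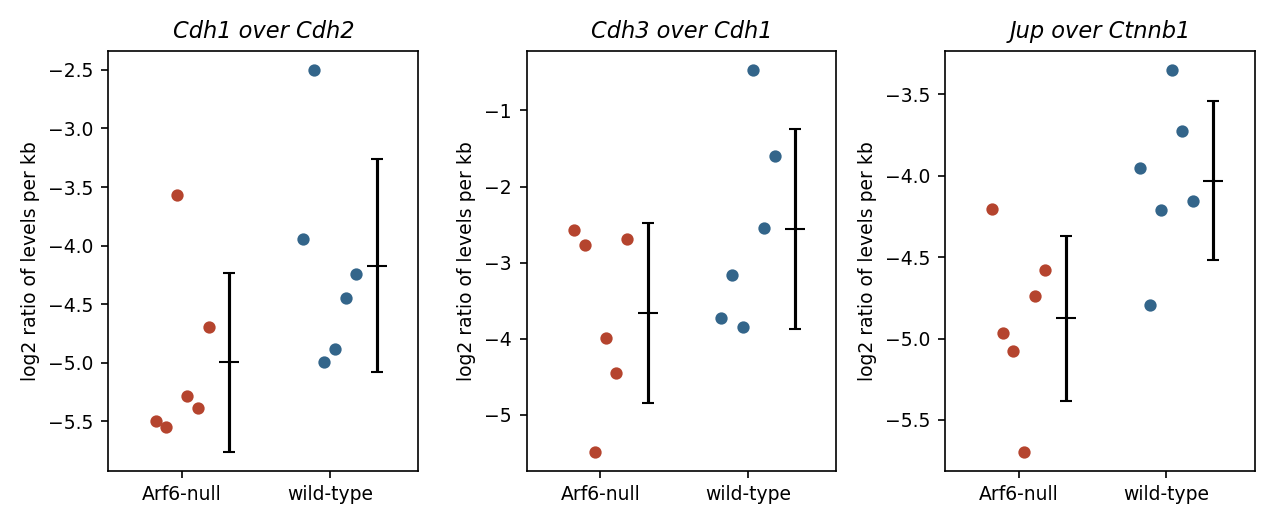
Log2 ratio of levels per kilobase (vertical axes) for Cdh1 over Cdh2, Cdh3 over Cdh1 and Jup over Ctnnb1 in 6 Arf6-null tumors (left, red) and 6 wild-type tumors (right, blue); points are tumors, bars the mean and SD. All ratios are negative, and the genotypes overlap in each panel.

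E-cadherin was measured on few reads. Cdh1 had 44 to 146 counts per Arf6-null library and 70 to 156 per wild-type library. It ran from 1.77 over a median of 2.80 to 4.34 CPM in Arf6-null tumors, against 2.30 over 3.72 to 5.16 CPM in wild-type tumors, with a log2 fold change of -0.35 (SE 0.26, adjusted p = 0.437 by edgeR). Cdh1 (ENSMUSG00000000303) spans 106603351 to 106670246 on chromosome 8 (GRCm38), and Cdh3 (ENSMUSG00000061048) is its neighbor, 46.1 kb away at 106510891 to 106557297. Cdh3 had 39 counts over the Arf6-null and 121 over the wild-type libraries, too few for the filter. It ran from 0.0297 over 0.146 to 0.470 CPM in Arf6-null tumors, against 0.170 over 0.491 to 1.58 CPM in wild-type tumors. In 4 wild-type tumors it exceeded every Arf6-null tumor. Fitted with no filter on low counts, its log2 fold change was -1.82 (SE 0.66, adjusted p = 0.195 by edgeR, unadjusted p = 0.0155), where 16.0% of the 33373 genes had an unadjusted p under 0.05. DESeq2 gave Cdh3 -1.86 (SE 0.69, adjusted p = 0.0577), also short of the threshold. With 1 tumor left out Cdh3 passed the filter in 7 fits. Its log2 fold change there ran from -2.05 to -1.63 (edgeR adjusted p from 0.142 to 0.244).

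Markers of keratinocytes, the skin cells richest in E- and P-cadherin, were sparse. Summed over 16 markers they reached 43.8 to 88.0 CPM in Arf6-null and 24.2 to 98.6 CPM in wild-type tumors, and most of this was Lgals7. Krt5 and Krt14, the basal keratins, were at 0 in 8 of 12 libraries each, with highest values of 3.84 and 12.6 CPM in Arf6-null tumors against 0.0329 and 0 CPM in wild-type tumors. Of 16 markers 6 had enough counts to test and 0 passed. The keratinocyte score is the mean log2 CPM of these 6, which include neither Krt5 nor Krt14. Over 12 tumors Pearson's r with the keratinocyte score was -0.40 for Cdh1, 0.24 for Cdh3 and -0.02 for Jup (permutation p = 0.203, 0.444 and 0.947), and Spearman's rho -0.45, 0.20 and 0.01 (permutation p = 0.140, 0.540 and 0.974). Without the 2 tumors farthest from the median score r was -0.33, 0.34 and -0.0006. Within Arf6-null tumors r was -0.19, 0.76 and 0.52, and within wild-type tumors -0.46, 0.39 and 0.04. After adjustment over the 6 relations tested these 3 had p of 0.609, 0.829 and 0.947.

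N-cadherin was abundant in all 12 tumors. Cdh2 (ENSMUSG00000024304), on chromosome 18 at 16588877 to 16809246, ran from 92.1 over a median of 173 to 222 CPM in Arf6-null tumors, against 52.0 over 126 to 198 CPM in wild-type tumors. In 1 Arf6-null tumor it exceeded every wild-type tumor, and wild-type replicate 2 was the lowest of all. The log2 fold change was 0.41 (SE 0.27, adjusted p = 0.394 by edgeR). Without the 3 muscle-rich wild-type libraries it was 0.74 (SE 0.34, adjusted p = 0.341 by edgeR), and with that score added to the model 1.011 (SE 0.33, adjusted p = 0.223 by edgeR), and the part of muscle RNA in it was not tested further. With Y-linked expression in the model it was 0.66 (edgeR adjusted p = 0.292). It was smaller without wild-type replicate 2, at 0.25 (edgeR adjusted p = 0.491), and with the keratinocyte score, at 0.24 (edgeR adjusted p = 0.603). For Cdh1 the same alternatives, leaving out the muscle-rich libraries and adding the muscle score, gave -0.60 (SE 0.31, adjusted p = 0.396 by edgeR) and -0.73 (SE 0.32, adjusted p = 0.344 by edgeR).

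Cdh11 (ENSMUSG00000031673), on chromosome 8 at 102632095 to 102785642, varied most over the 12 tumors among the members tested. It ran from 18.5 over a median of 279 to 451 CPM in Arf6-null tumors, against 221 over 465 to 577 CPM in wild-type tumors. Arf6-null replicate 4 held the lowest value and lay 24.4-fold under the highest Arf6-null tumor. The wild-type tumors spanned 2.62-fold, less than for Cdh13 (3.94-fold) and Cdh2 (3.81-fold). The log2 fold change was -0.85 (SE 0.54, adjusted p = 0.362 by edgeR), and limma-voom with quality weights gave -1.31 (adjusted p = 0.193). Cdh11 followed the fibroblast score, the mean log2 CPM of 14 matrix and fibroblast genes, with Pearson's r = 0.92 (permutation p = 2e-05, adjusted 0.00012) and Spearman's rho = 0.92 (permutation p = 8e-05) over 12 tumors. Without Arf6-null replicate 4 and wild-type replicate 1, the tumors farthest from the median score, r was 0.80 (permutation p = 0.00491, adjusted 0.0295). Within genotypes r was 0.98 in Arf6-null tumors (exact permutation p = 0.00694, adjusted 0.0417, n = 6) and 0.78 in wild-type tumors (exact permutation p = 0.0264, adjusted 0.158, n = 6).

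Most fibroblast markers, like Cdh11, had lower values in Arf6-null tumors without passing the test. Of 14, 13 had negative log2 fold changes, 0 passed, and their median was -0.79. Summed, they reached 2568 to 16824 CPM in Arf6-null and 7724 to 25767 CPM in wild-type tumors. With the fibroblast score as a covariate, added after seeing the data, the log2 fold change of Cdh11 was 0.12 (SE 0.36, adjusted p = 0.953 by edgeR), and what part fibroblasts had in either value was not tested. For Cdh2 the same score gave r = -0.18 over 12 tumors (permutation p = 0.553, adjusted 0.829; Spearman's rho -0.31, permutation p = 0.320). This r was 0.09 without the 2 farthest tumors, -0.27 within Arf6-null and 0.46 within wild-type tumors.

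Cdh13 (ENSMUSG00000031841), on chromosome 8 at 118283733 to 119324921, was highest in 2 Arf6-null tumors and 1 wild-type tumor. It ran from 103 over a median of 199.5 to 470 CPM in Arf6-null tumors, against 96.3 over 159 to 379 CPM in wild-type tumors. Arf6-null replicates 1 and 2 and wild-type replicate 2 were above the rest. The log2 fold change was 0.38 (SE 0.41, adjusted p = 0.613 by edgeR), and single tumors moved it. It was 0.091 without Arf6-null replicate 1, 0.22 without Arf6-null replicate 2, 0.24 without wild-type replicate 1 and 0.70 without wild-type replicate 2 (edgeR adjusted p = 0.920, 0.807, 0.771 and 0.267). It was 0.12 without the muscle-rich libraries and 0.097 with the Y-linked covariate, and over 24 alternatives it ran from -0.033 to 0.70. T-cadherin is known from endothelium, and 11 of 13 endothelial markers had negative log2 fold changes, with 0 called and sums of 301 to 704 CPM in Arf6-null and 271 to 654 CPM in wild-type tumors. Between Cdh13 and that score r was 0.02 (permutation p = 0.941, adjusted 0.947) and rho -0.12 (permutation p = 0.717) over 12 tumors, -0.18 without the 2 farthest, -0.12 within Arf6-null and 0.55 within wild-type tumors.

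**Figure D4:**
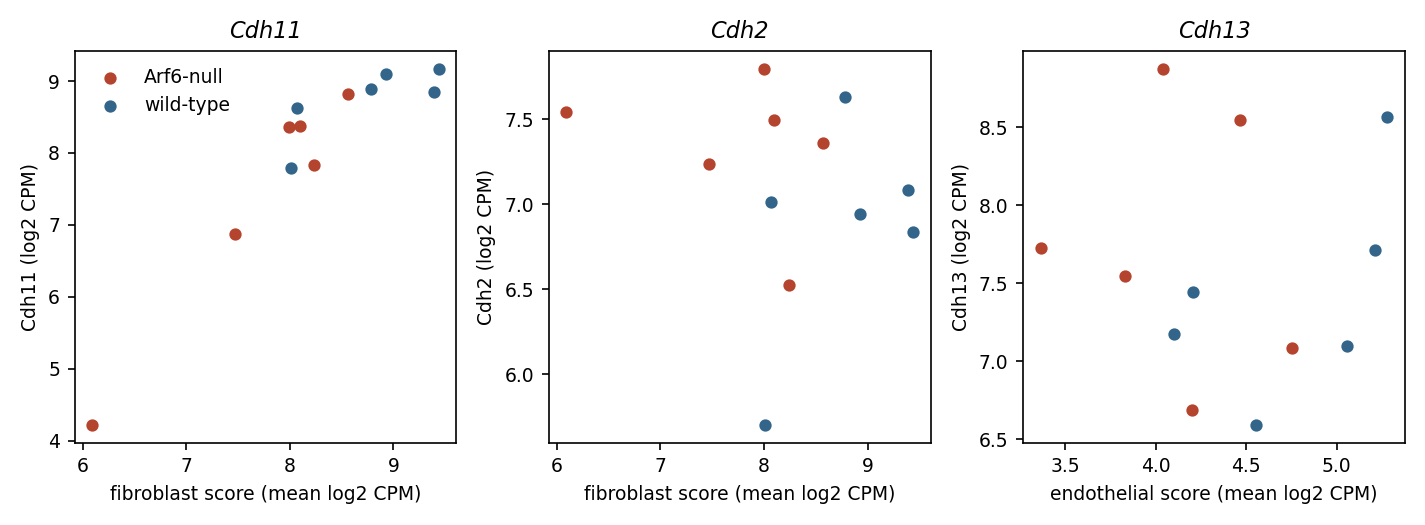
Log2 CPM of Cdh11, Cdh2 and Cdh13 (vertical axes) against the fibroblast score (first and second panels) or the endothelial score (the last panel), each the mean log2 CPM of its markers; points are Arf6-null (red) and wild-type (blue) tumors. Cdh11 rises with the fibroblast score (r = 0.92 over 12 tumors), while r was -0.18 for Cdh2 and 0.02 for Cdh13.

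Related genes were read from 8 lists holding 144 genes. Of these 112 were tested and 1 passed, where 1.15% of all tested genes did. The CPM ranges of the genotypes were separate in 3 of the 112, beside 2.36% of all tested genes. At an unadjusted p under 0.05 the tested list genes numbered 31, or 27.7%, near the 23.4% of all tested genes. The gene that passed was Celsr2, an atypical cadherin of planar cell polarity, at 0.438 ± 0.178 CPM in Arf6-null and 1.23 ± 0.183 CPM in wild-type tumors (SD, n = 6 each; log2 fold change -1.47, SE 0.27, edgeR adjusted p = 0.0307). Its ranges did not overlap, and it passed in 5 of 12 fits that leave out 1 tumor (edgeR adjusted p from 0.0168 to 0.0746). It lost the call without Arf6-null replicate 1, 2 or 4 and without wild-type replicate 1, 3, 4 or 6, and had an edgeR adjusted p = 0.1505 without the muscle-rich libraries. It also lost the call with no filter (0.0679) and with Y-linked expression (0.0753), the muscle score (0.112) or the fibroblast score (0.208) as a covariate. The other atypical cadherins, 14 tested, did not pass, and the list's median log2 fold change was -0.39 beside -0.027 for all genes.

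Of 17 other Cdh genes, listed as other classical cadherins though not all are of that type, 7 were tested and 0 passed, with a median of 0.11. Cdh26 was at 16.7 ± 19.6 CPM in Arf6-null and 1.93 ± 2.31 CPM in wild-type tumors (edgeR adjusted p = 0.117), and Cdh24 at 4.90 ± 0.707 in Arf6-null and 7.12 ± 3.42 CPM in wild-type tumors (edgeR adjusted p = 0.320). Among 16 desmosome genes, 9 tested, the median was 0.40. The desmosomal cadherin gene Dsc3 was at 7.05 ± 3.59 CPM in Arf6-null and 1.09 ± 1.31 CPM in wild-type tumors, and Pkp1, a plaque protein of the catenin-like armadillo family, at 49.7 ± 37.6 in Arf6-null and 6.78 ± 6.26 CPM in wild-type tumors (edgeR adjusted p = 0.112 and 0.137). Both had positive log2 fold changes, 2.69 and 2.87, while that of Jup, which meets them in the desmosome, was negative.

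Plaque partners and traffic genes also stayed short of the threshold. Among 18 tested plaque genes the median was -0.16. Zyx, an actin regulator at junctions, was at 406 ± 116 CPM in Arf6-null and 253 ± 55.6 CPM in wild-type tumors, and Plekha7, a partner of p120-catenin, at 0.878 ± 0.239 in Arf6-null and 2.10 ± 0.875 CPM in wild-type tumors (edgeR adjusted p = 0.0864 and 0.0615). Among 21 genes of cadherin turnover and traffic the median was 0.05. Yes1, a Src-family kinase, was at 25.2 ± 3.19 CPM in Arf6-null and 36.4 ± 5.39 CPM in wild-type tumors without overlap (edgeR adjusted p = 0.0525), and Dab2, a clathrin adaptor, at 118 ± 23.02 in Arf6-null and 205 ± 83.3 CPM in wild-type tumors (edgeR adjusted p = 0.0989).

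Of regulators that repress E-cadherin, Zeb1, Zeb2, Snai1 and Snai3 were singled out after their values were seen. Zeb1 was at 138 ± 33.6 CPM in Arf6-null and 148 ± 43.7 CPM in wild-type tumors, Zeb2 at 103 ± 22.7 CPM in Arf6-null and 106 ± 31.5 CPM in wild-type tumors, and Snai1 at 47.5 ± 23.1 CPM in Arf6-null and 48.6 ± 11.1 CPM in wild-type tumors (edgeR adjusted p = 0.803, 0.927 and 0.953). Their log2 fold changes were -0.10, -0.04 and -0.03. Snai3 was at 0.233 ± 0.161 CPM in Arf6-null and 0.436 ± 0.347 CPM in wild-type tumors, too low to test. Snai2 and Twist1, from the same list, had positive log2 fold changes, 0.38 and 0.44 (edgeR adjusted p = 0.561 and 0.363). Snai2 was at 27.4 ± 15.6 CPM in Arf6-null and 21.1 ± 8.31 CPM in wild-type tumors. Twist1 was at 93.1 ± 29.5 CPM in Arf6-null and 68.4 ± 28.6 CPM in wild-type tumors. The epithelial factor Grhl2, singled out in the same way, was at 0.397 ± 0.232 in Arf6-null and 0.198 ± 0.140 CPM in wild-type tumors and was not tested. Of 11 tested regulators 0 passed, with 6 positive and 5 negative log2 fold changes and a median of 0.17. Klf4 was at 124 ± 27.6 CPM in Arf6-null and 63.1 ± 20.6 CPM in wild-type tumors without overlap, and Twist2 at 133 ± 34.6 in Arf6-null and 76.0 ± 27.2 CPM in wild-type tumors (edgeR adjusted p = 0.0595 and 0.0860).

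Beta-catenin also acts in the nucleus as the effector of Wnt signalling. Among 15 tested genes of the destruction complex or of other control of beta-catenin 0 passed, with a median of 0.002. Ctnnbip1, an inhibitor of beta-catenin, was at 17.0 ± 4.44 CPM in Arf6-null and 23.8 ± 1.83 CPM in wild-type tumors, and Amer1, a scaffold of the complex, at 15.2 ± 2.18 in Arf6-null and 21.5 ± 5.71 CPM in wild-type tumors (edgeR adjusted p = 0.109 and 0.125). Among 16 tested nuclear partners and targets 0 passed, with a median of -0.17. Apcdd1, a Wnt-induced inhibitor, was at 246 ± 112 CPM in Arf6-null and 94.8 ± 38.4 CPM in wild-type tumors, and Pygo1, a coactivator, at 4.56 ± 3.34 in Arf6-null and 11.97 ± 4.14 CPM in wild-type tumors (edgeR adjusted p = 0.0663 and 0.115).

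**Figure D5:**
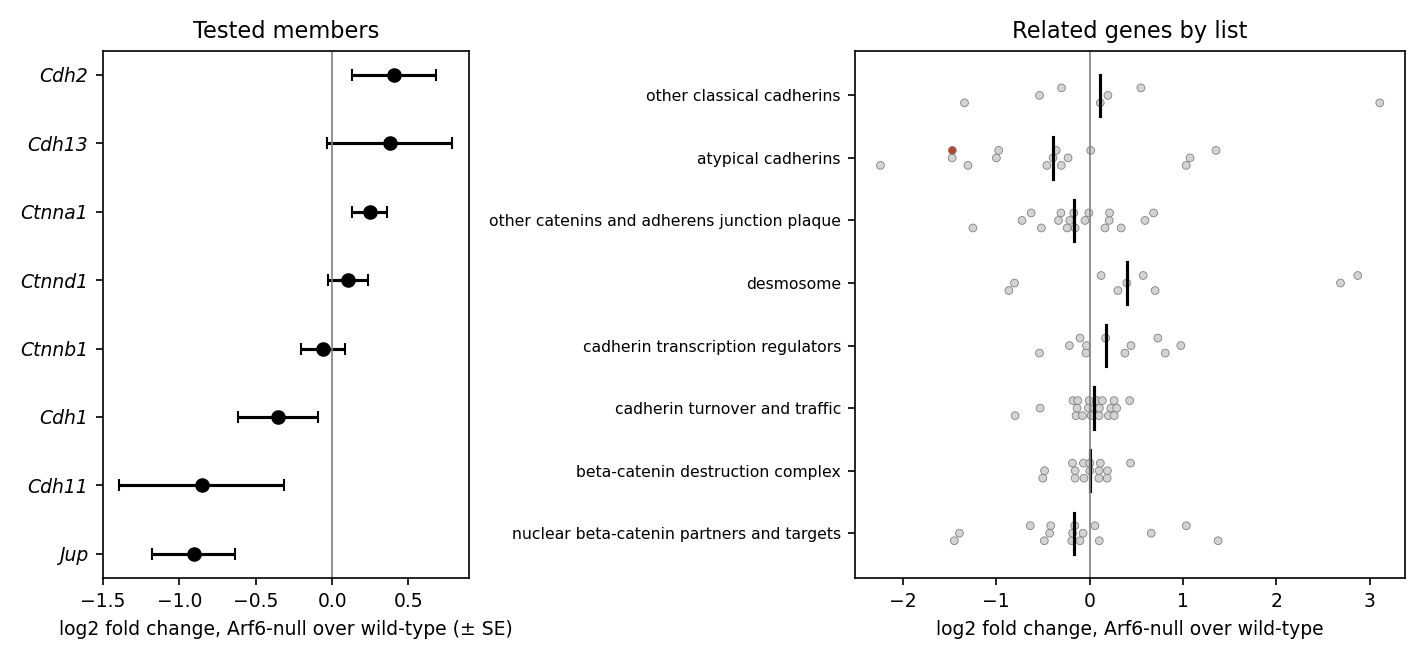
Log2 fold change, Arf6-null over wild type (horizontal axes), of the 8 tested members with their SE (left) and of the tested genes in 8 related lists (right; vertical bars mark medians). The red point is Celsr2, the 1 gene of these lists past the threshold, and member values run from -0.91 for Jup to 0.41 for Cdh2.

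The genes whose pattern over the 12 tumors was most like each member were ranked by Pearson's r of log2 CPM after subtracting the mean of each genotype, among 14448 genes with a mean of at least 1 CPM. For Cdh11 these were Prdm11 (r = 0.98), Gab1 (0.97) and Zfp300 (0.95); within Arf6-null tumors, which include the low replicate 4, r was 0.995, 0.99 and 0.99, and within wild-type tumors 0.85, 0.78 and 0.74. For Cdh2 they were C130071C03Rik (r = 0.93), Pear1 (0.92) and Hoxb8 (0.91), and for Cdh13 H2afj (0.92), Tmem43 (0.90) and Cd109 (0.88). For Cdh1 they were St8sia4, Gm13889 and Gdnf, with r from 0.85 to 0.86. For Cdh3, on its 1 to 48 counts per library, they were Cuta, Mvb12a and Rps9, with r from 0.92 to 0.97. Ctnnb1 was most like Gnai3 (r = 0.95), Zfp146 (0.92) and Wnt7b (0.91). Ctnna1 was most like Tfg (0.96), Nop2 (0.95) and Strap (0.95). Ctnnd1 was most like Cdk16 (0.90), Phc2 (0.87) and Pogk (0.87), and Jup was most like Oat (0.86), Apool (0.85) and Sbk1 (0.84). Each is the top of a ranking over many genes and carries no test.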

How the data were processed

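Tumor RNA, purified with Direct-zol, went into TruSeq Stranded mRNA libraries, per the labels' protocols. The submitters' processing notes name STAR 2.7.3a, featureCounts 1.6.3, DESeq2 1.26.0 and the build GRCm38 (mm10); neither the strand setting nor the handling of shared reads is stated there. The authors deposited raw counts for 55487 Ensembl identifiers, not normalized, and 55227 of these could be given a symbol.

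Genotypes were compared with the quasi-likelihood test of edgeR 4.0.16 in R 4.3.3 after filterByExpr (16225 genes, 99.9% of counts) and scaling by the trimmed mean of M values. P-values were adjusted by Benjamini-Hochberg over the genes tested and called at 0.05. The fit was unpaired, since no label ties tumors across genotypes. SE were derived from the F statistic. Log2 CPM used a prior count of 2, and marker scores are means over tested markers. Ratios used exact permutation tests, and relations to marker scores used permutation tests with 100000 resamples over 12 tumors and exact ones within a genotype, all two-sided. No pair of libraries agreed within sampling noise (smallest chi-square per degree of freedom 93.1). The functions were tested on simulated counts.

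The members and lists were chosen with earlier results of these data known. Named genes were the members, then per list those past the threshold (up to 3 per direction) or the 2 with the smallest p, and the 3 most alike genes per member. Alternatives were other scalings (median of ratios, upper quartile), other filters, DESeq2 1.42.0, limma-voom (3.58.1) with quality weights, Y-linked expression or muscle score as a covariate, tumors left out and counts thinned to 21007954. Keratinocyte and fibroblast scores as covariates were added after seeing the data.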

Additional observations from a re-analysis of the deposited data

Results flagged for a closer look

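The share of Cdh13 in the summed cadherin level reached 51.0% in wild-type replicate 2, while the remaining 5 tumors of that genotype had 9.69% to 21.2%. It was the 1 value among 42 sets of 6 (member levels, ratios, shares, 3 marker scores and library totals, by genotype) in which a tumor stood far from the other 5, and chance gives about 1 in 20. The same tumor held the lowest Cdh2 and Cdh11 levels of the wild-type group.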

How the results depend on the processing

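Of the members, Jup was called by DESeq2 alone (log2 fold change -0.90), so that the count of members called was 1 there and 0 under the other 23 alternatives, each tumor left out included. Signs turned for Cdh11 with the fibroblast score as a covariate (0.12), for Cdh13 with the muscle score (-0.033) and for Ctnnb1 with the keratinocyte score (0.042) or without wild-type replicate 1 (0.047). The range of Jup over 24 alternatives was -1.05 to -0.50. Over all genes 186 were called, against 2241 with DESeq2, 996 with limma-voom, 30 with Y-linked expression, 19 with the muscle score, 35 without the muscle-rich libraries, 332 with the keratinocyte and 8 with the fibroblast score, and 25 to 766 with 1 tumor left out. Calls higher in Arf6-null tumors made up 41.4% under upper-quartile scaling and 26.3% with the muscle score, against 51.1%.

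Leaving out 1 tumor, the ratio difference ran from -1.11 to -0.49 for Cdh1 over Cdh2, from -1.36 to -0.68 for Cdh3 over Cdh1 and from -0.997 to -0.68 for Jup over Ctnnb1. Turned relations had r of 0.52 and 0.041 (Jup and keratinocyte score within Arf6-null and within wild-type tumors), 0.089 and 0.46 (Cdh2 and fibroblast score without the farthest tumors and within wild type), and -0.18 and -0.12 (Cdh13 and endothelial score without the farthest tumors and within Arf6-null). Cdh11 with the fibroblast score was short of the threshold within wild-type tumors (r = 0.78). These subsets hold fewer tumors, and the cause of the changes was not tested. Cdh3 and Cdh1 had low counts. With counts thinned to the smallest total the log2 fold change of Cdh1 was -0.46 (edgeR adjusted p = 0.380), and Cdh3 did not pass the filter. No paired analysis was possible because the labels give no numbers shared between the genotypes.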

Other observations

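Other cadherins, singled out after their values were seen, had wide ranges that overlapped between genotypes. Cdh5, the endothelial cadherin, ran from 28.4 to 212 CPM in Arf6-null and from 55.1 to 133 CPM in wild-type tumors, and Cdh6 from 13.5 to 89.9 CPM in Arf6-null and from 2.17 to 83.3 CPM in wild-type tumors. Cdh10 ran from 0 to 16.5 CPM in Arf6-null and from 0 to 9.30 CPM in wild-type tumors. The muscle cadherin Cdh15 ran from 0.0502 to 1.02 CPM in Arf6-null tumors, against 0.0795 to 4.59 CPM in wild-type tumors, with the highest value in wild-type replicate 5, one of the muscle-rich libraries.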
